A study of Mus musculus with 30 samples.

Results

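Naive CD8+ T cells (TN) were activated in culture together with in vitro differentiated memory cells (TMem), sorted out of the mixture after 18 h or 96 h, and profiled on 3 arrays at each time. The comparison of 96 h with 18 h therefore rests on 6 of the 30 arrays of the series, chosen by their titles, and on 19106 of 19938 measured genes, those placed on autosomes. All cells came, per the labels, from spleens of adult female C57BL/6 mice of 6 to 12 weeks that carried the Pmel-1 T cell receptor transgene, with Ly5.1 for TN and Ly5.2 for TMem. All stimulated groups received antibodies to CD3 and CD28 together with IL-2. Beside the mixed TN cells, other arrays are used here for reference: TN cells stimulated by themselves (TN alone) for 18 h and 96 h, TMem cells from mixed cultures (TMem mix) at the same times, and unstimulated TN cells (0 h). Unstimulated TMem cells (0 h) are used in the check of the labelled sex. Every group had 3 arrays. The labels call these biological repeats and do not say whether each came from its own animal, so p-values measure the spread between these samples. The memory cells are a culture product and not memory cells formed in an animal, and the T cells of this line share a transgenic receptor, here bypassed by the antibodies.

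Signals through the T cell receptor and CD28 turn on early regulators, cytokines and chemokines within hours, and raise Myc, which drives growth, ribosome production and uptake of nutrients. Cells then enter S phase under E2F factors and divide, a programme that IL-2 sustains. Dividing T cells take up glucose, ferment part of it to lactate and build sterols and fatty acids for membranes, while naive regulators give way to effector ones. The interval from 18 h to 96 h spans the passage from the first wave of signalling to sustained division.

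Levels below are log2 values as deposited, and a difference of 1 is a change by a factor of 2. A gene was called where the limma fit across all 30 arrays gave a Benjamini-Hochberg adjusted p under 0.05 over all genes. Only called genes are said to rise or fall. Levels are called near background where the mean of a group lies under the average of its arrays' lower quartiles (5.88 for TN mix at 18 h and 5.98 at 96 h). Where a difference starts or ends there, the fitted value is a minimum of its size. Fitted differences between cultures that use such a level are limited in size too. Where such levels enter at both times or in both cultures, the direction of that limit is not known. An exact permutation test of 3 arrays against 3 cannot go below p = 0.1.

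The 6 arrays carried the transcripts of CD8+ T cells. Cd8a lay between 12.17 and 12.27 on all 6 and Cd8b1 between 11.02 and 11.26, and neither was called between the times. Within the 18 h group, replicate 2 stood apart: its median was 6.78 against 6.96 and 6.98, and it was the lowest array for 60.7% of genes. At 96 h the medians were 7.17, 7.07 and 7.08, and replicate 1 was the lowest array for 30.6% of genes but for 81.8% of the ribosome assembly genes and 84.8% of the proteasome genes. No 2 arrays were duplicates. The labelled sex was not borne out on these arrays. The Y-linked gene Eif2s3y stood at 8.50, 8.38 and 8.21 at 18 h and 7.34, 7.70 and 7.89 at 96 h, while Xist, which is transcribed from the inactive X chromosome, lay between 10.95 and 11.78. TMem arrays at 0 h and from mixed cultures held Eif2s3y at means of 9.17 to 9.26 with Xist near background, and TN cells at 0 h and TN alone at 96 h held Eif2s3y near background. TN alone at 18 h, with no memory cells in the culture, held it at 8.14, with Kdm5d at 7.61 and Uty at 6.88, so the time comparison in TN alone sets arrays with this signal against arrays without it. All 6 arrays of mixed TN cells carried this signal, so no value without it can be given, and its part in the results was not tested. Klrg1 and Gpr141, both measured well above background in TMem cells of the same cultures at 96 h, were near background in mixed TN cells. Klrg1, a receptor of differentiated effector cells chosen here after its values were seen, stood at 7.68, 7.89 and 7.29 in TMem mix and at 5.49, 5.21 and 5.35 in TN mix, and Gpr141, an orphan receptor, at 9.43, 9.15 and 9.23 against 5.02, 5.18 and 5.26. Gpr141 is named for its large difference from TMem mix. Genes picked in these ways do not measure the purity of the sort, which was not tested.

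Many of the largest rises in the comparison were cell cycle genes, which are known to be controlled through short promoter elements. E2F sites serve genes of S phase, and the cell cycle genes homology region (CHR) serves genes of mitosis. Both were searched on both strands in the 250 bases before the start of each gene, from RefSeq promoters (GRCm38.p6, 27025 promoters). The CHR letters TTTGAA occurred in 10 of 26 mitosis genes with a promoter in the table (38.5%) and in 16.3% of all promoters. The E2F letters TTTGGCGC, TTTCCCGC, TTTGCCGC or TTTCGCGC, which can overlap each other, occurred in 7 of 32 S phase genes (21.9%) and in 1.91% of all. Shown are 6 promoters with a match, among the genes of either list with the smallest adjusted p, each written 5′ to 3′ on the gene's strand up to the base before the start, with matches in capitals, as found or as reverse complement. They are Ccnb2 (chr9:70421555-70421804, minus strand), Kif11 (chr19:37376132-37376381, plus), Top2a (chr11:99024190-99024439, minus), Cdc6 (chr11:98907901-98908150, plus), Mcm7 (chr5:138171884-138172133, minus) and Mcm5 (chr8:75109259-75109508, plus).
Ccnb2: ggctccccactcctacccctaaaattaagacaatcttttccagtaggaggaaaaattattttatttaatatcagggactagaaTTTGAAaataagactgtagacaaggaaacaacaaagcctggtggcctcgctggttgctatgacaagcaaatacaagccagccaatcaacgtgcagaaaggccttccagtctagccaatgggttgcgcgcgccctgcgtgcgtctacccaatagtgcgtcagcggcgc
Kif11: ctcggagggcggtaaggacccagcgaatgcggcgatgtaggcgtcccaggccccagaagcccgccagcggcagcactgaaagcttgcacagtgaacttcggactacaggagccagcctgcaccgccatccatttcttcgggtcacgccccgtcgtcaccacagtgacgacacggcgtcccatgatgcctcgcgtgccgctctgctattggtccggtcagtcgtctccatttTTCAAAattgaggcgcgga
Top2a: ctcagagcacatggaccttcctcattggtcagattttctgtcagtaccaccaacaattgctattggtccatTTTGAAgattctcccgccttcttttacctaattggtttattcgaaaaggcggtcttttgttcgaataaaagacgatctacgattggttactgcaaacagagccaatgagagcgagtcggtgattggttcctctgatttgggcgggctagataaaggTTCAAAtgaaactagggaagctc
Cdc6: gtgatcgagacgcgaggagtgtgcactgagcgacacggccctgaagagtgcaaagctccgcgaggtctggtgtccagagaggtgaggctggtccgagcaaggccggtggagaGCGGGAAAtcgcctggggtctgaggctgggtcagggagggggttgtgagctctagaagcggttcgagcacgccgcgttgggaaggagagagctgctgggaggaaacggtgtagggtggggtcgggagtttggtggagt
Mcm7: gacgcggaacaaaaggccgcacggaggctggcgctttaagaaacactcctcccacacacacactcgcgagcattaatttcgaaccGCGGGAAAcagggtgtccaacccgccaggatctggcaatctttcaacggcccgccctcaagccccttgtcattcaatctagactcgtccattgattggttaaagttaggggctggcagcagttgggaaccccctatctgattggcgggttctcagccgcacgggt
Mcm5: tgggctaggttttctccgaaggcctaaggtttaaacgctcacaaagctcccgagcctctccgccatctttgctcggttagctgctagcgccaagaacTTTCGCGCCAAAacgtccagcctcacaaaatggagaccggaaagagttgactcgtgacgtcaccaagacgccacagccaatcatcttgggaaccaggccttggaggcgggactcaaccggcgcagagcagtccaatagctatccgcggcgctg
Top2a holds a pair of CHR matches, 179 and 23 bases before its start, and the match of Kif11 lies 19 bases before its start. The E2F match of Cdc6 begins 138 bases and that of Mcm7 165 bases before the start, and Mcm5 has 2 overlapping matches at 153 and 149 bases. A match describes letters in this window and is not evidence of binding.

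Between 18 h and 96 h, 7162 of 19106 genes were called (37.5%), 3983 higher (20.8%) and 3179 lower (16.6%) at 96 h. On the deposited scale large changes were mostly rises: 807 genes rose and 396 fell by at least 1, and 103 rose and 16 fell by at least 3. The median difference over all genes was 0.07. The split between rises and falls depended on the scaling between arrays, also for differences of at least 1. With each array centred on its median, the median difference was -0.13 and 2162 genes were higher against 6035 lower, so that 26.4% of calls were higher in place of 55.6%. Quantile normalization gave a median of -0.02 and 3178 higher against 3931 lower (44.7% higher). Of differences of at least 1, 578 were higher and 718 lower with centring and 715 and 454 with quantile normalization. The share higher at that size was 67.1% as deposited, 44.6% with centring and 61.2% with quantile normalization.

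**Figure D1:**
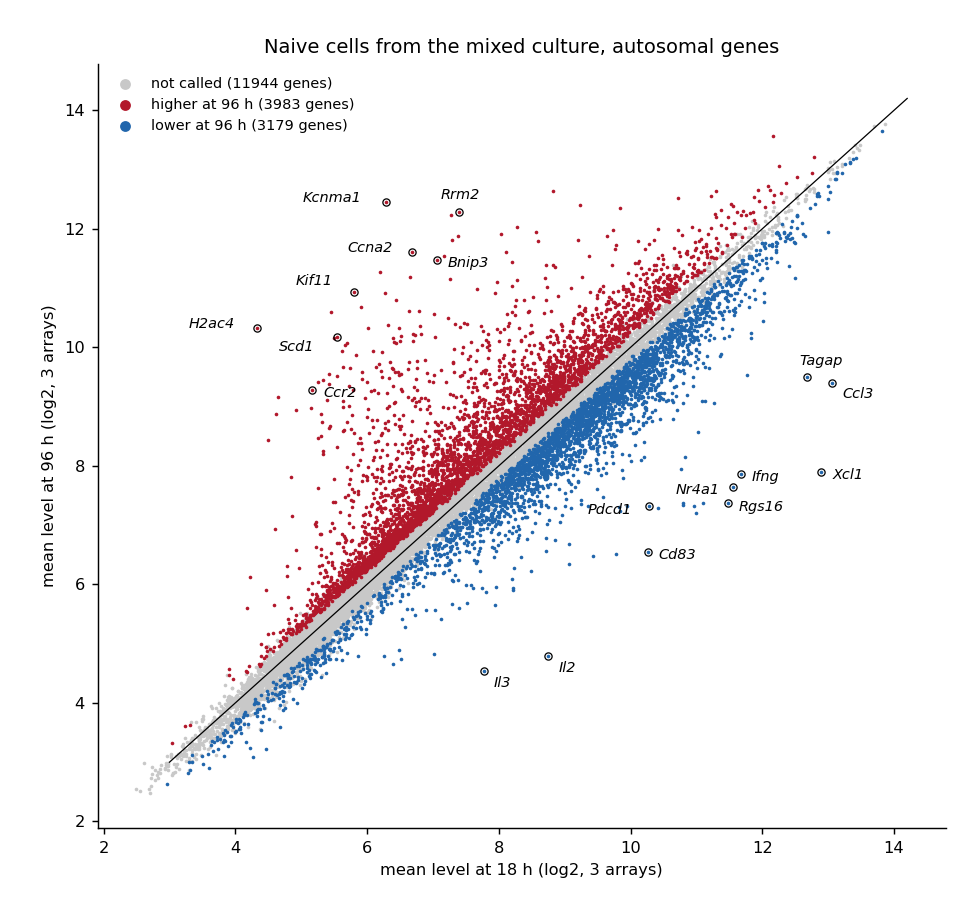
Mean log2 level of each autosomal gene in TN cells from mixed cultures at 18 h (x axis) and at 96 h (y axis), 3 arrays each, with 3983 genes called higher in red, 3179 called lower in blue and the others in grey; the line marks equal levels. The cell cycle genes Rrm2, Ccna2 and Kif11 and the channel gene Kcnma1 lie far above the line, and Xcl1, Ifng, Il2 and Nr4a1 far below it.

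Regulators of entry into the cycle come first by role. Of 28 Myc and G1 regulators, 20 rose and 2 fell (median 0.91), with 18 and 4 after centring. The 2 that fell were Ccnd2, a D-type cyclin chosen here after its values were seen (-0.61), and Myc. Myc, the growth regulator itself, went from 12.58, 12.63 and 12.65 to 12.07, 11.87 and 11.79 and fell by 0.71 (SE 0.11, adjusted p = 3.46e-06), which left it above its 0 h mean of 10.37. Cyclins E1 and E2 open the way to S phase with Cdk2. Ccne1 rose by 2.41 (SE 0.07, adjusted p = 2.63e-21) from 8.43, 8.30 and 8.43 to 10.75, 10.86 and 10.79. Ccne2 rose by 2.57 from 6.16, 6.11 and 6.02 to 8.42, 8.65 and 8.91. The E2F family holds activators and repressors of S phase genes, and members of both kinds rose: the activators E2f1 (1.80) and E2f2 (2.73) and the atypical repressors E2f7 (2.31) and E2f8. E2f8 moved from 5.69, 5.58 and 5.74, near background, to 10.07, 10.10 and 9.97, a difference of at least 4.38. In bulk RNA, more cells in the cycle and more transcript per cell cannot be told apart.

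S phase genes rose as a near complete list: 38 of 39 rose and 1 fell, with a median of 1.16 (37 and 1 after centring), where 20.8% of all genes rose. The largest member was Rrm2, the regulated subunit of ribonucleotide reductase, which makes the building blocks of DNA. It stood at 7.62, 7.37 and 7.18 at 18 h and at 12.21, 12.28 and 12.38 at 96 h (log2 difference 4.90, SE 0.10, adjusted p = 1.4e-23). The 3 values at each time lay within 0.5 of each other and far from the other time. Tyms, thymidylate synthase, rose by 3.32, and Mcm10, which activates the replicative helicase, by 3.13. Cdc6, which loads that helicase onto origins, went from 6.64, 6.58 and 6.34 to 9.12, 9.40 and 9.37 (2.78, SE 0.09, adjusted p = 2e-19). Of the printed promoters, those of Mcm5 and Mcm7 belong to subunits of the helicase itself, which rose by 1.03 (SE 0.07) and 1.44 (SE 0.08). These 2, Orc1, Top2a, Ung, Pcna and Prim1 are named outside the rule for named genes, after their values were seen. Ung, the uracil glycosylase of DNA repair, was the member that fell (-0.39). Pcna, the sliding clamp, was already at 12.27, 12.08 and 12.16 at 18 h and rose by 0.28 only.

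Mitosis genes rose without exception: 30 of 30 were higher at 96 h, with differences from 2.28 to 5.14 and a median of 3.90 (3.70 after centring). Kif11, the kinesin that separates the spindle poles, stood at 5.72, 5.78 and 5.88, near background, at 18 h and at 10.95, 10.80 and 11.06 at 96 h, a difference of at least 5.14 (SE 0.09, adjusted p = 5.47e-26). Bub1, a kinase of the spindle checkpoint, rose by at least 5.13 from 5.46, 5.71 and 5.21 to 10.64, 10.48 and 10.66. The cyclins that drive mitosis followed the same course. Ccnb2 went from 7.38, 7.17 and 7.26 to 12.27, 12.29 and 12.15 (4.97, SE 0.08), and Ccna2 from 6.71, 6.73 and 6.62 to 11.52, 11.64 and 11.65 (4.92, SE 0.07, adjusted p = 5.02e-27). The kinases Plk1 and Aurkb rose by 4.54 and 4.52. Nusap1, a spindle protein, rose by 4.77 and Ncapg, a condensin subunit, by at least 4.67. In this list 96 h replicate 1 was the lowest array for 56.7% of genes and replicate 2 for 26.7%. Mki67, the proliferation marker, was low on replicate 2, at 11.26, 10.18 and 11.32 at 96 h and between 6.18 and 6.35 at 18 h (4.65, SE 0.27).

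Histone genes of the replication-dependent clusters, a list added after the data were seen, rose in 25 of 27 cases with none falling (median 1.65, 24 of 27 after centring). H2ac4 stood at 4.43, 4.78 and 3.79, near background, at 18 h and at 9.82, 10.77 and 10.38 at 96 h, a difference of at least 5.99 (SE 0.30, adjusted p = 1.78e-15). H2bc3 rose by 5.06 from between 6.12 and 6.29 to between 11.09 and 11.49. Histone genes are near copies of each other, so single members are uncertain where probes can share signal. The largest rise of all belonged to no cycle gene. Kcnma1, a potassium channel gated by calcium, stood at 6.48, 5.99 and 6.41 at 18 h and at 12.58, 12.40 and 12.36 at 96 h (6.16, SE 0.14, adjusted p = 2.47e-23). Its mean in unstimulated TN cells was 12.66, close to the 96 h level and far above the 18 h level. The change from 0 h was not tested.

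Glucose genes rose at most steps from uptake to lactate export. Of 17 members of the glycolysis list, 13 rose and 1 fell (median 1.00, 12 and 3 after centring). Slc2a3, a glucose transporter, went from 8.45, 8.25 and 8.49 to 10.14, 10.29 and 10.16 (1.80, SE 0.16, adjusted p = 3.7e-10). Slc16a3, which exports lactate, rose by 2.47 (SE 0.18) from between 7.10 and 7.64 to between 9.79 and 10.12. Of the enzymes between them, Tpi1, triose phosphate isomerase, rose by 1.66 and Pfkm, a phosphofructokinase, by 1.41. Aldoc, an aldolase isoform, had the largest difference of the list: 6.14, 5.94 and 6.32 at 18 h became 9.53, 9.69 and 9.79 at 96 h (3.54, SE 0.17, adjusted p = 6.48e-16). The groups of all these genes were apart by more than their own spread. Chosen after their values were seen, Hk2, the inducible hexokinase (0.09), and Hk1 (-0.18) were not called, and the lactate and pyruvate transporter Slc16a1 was the member that fell (-0.43).

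Genes of the response to low oxygen rose too, 15 of 20 with none falling (median 0.72, 11 higher and 1 lower after centring). Hypoxia-inducible factors bind the letters ACGTG, which occurred on either strand in 11 of 18 promoters of the list (61.1%) and in 16.6% of all. Bnip3, a receptor for the removal of mitochondria, stood at 6.99, 7.15 and 7.04 at 18 h and at 11.36, 11.66 and 11.40 at 96 h (4.42, SE 0.22, adjusted p = 1.25e-15). Ak4, a mitochondrial adenylate kinase, went from 7.35, 7.32 and 7.35 to 10.34, 10.50 and 10.33 (3.05, SE 0.25). Egln3, an oxygen sensor that marks these factors for destruction, rose by 1.89, Plin2, which coats lipid droplets, by 1.56 and Egln1 by 1.15. Hif1a itself, chosen after its values were seen, rose by 0.31.

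Lipid synthesis genes formed the next group. Of 18 genes of cholesterol synthesis and uptake, 16 rose and none fell (median 0.87, 15 after centring), where 20.8% of all genes rose. Dhcr7, which makes cholesterol in the last step, went from 7.98, 7.85 and 7.97 to 9.40, 9.40 and 9.34 (1.45, SE 0.08, adjusted p = 1.5e-14). Tm7sf2, a sterol reductase, rose by 1.34, Mvd, which makes isopentenyl pyrophosphate, by 1.19 and Stard4, a carrier of cholesterol, by 1.11. Fatty acid genes rose in 9 of 12 cases with none falling (median 0.74, 9 and 2 after centring), and the desaturases led. Scd1, which puts the first double bond into fatty acids, stood at 5.71, 5.28 and 5.62, near background, at 18 h and at 10.21, 10.27 and 10.04 at 96 h, a difference of at least 4.64 (SE 0.35, adjusted p = 1.21e-11). Fads2, which starts the synthesis of polyunsaturated fatty acids, went from 6.50, 6.05 and 6.75 to 10.78, 10.84 and 10.78 (4.36, SE 0.12). Fads1 rose by 2.33 and Scd2 by 2.52. Fatty acid oxidation was mixed, with 6 of 14 higher and 2 lower and a median of 0.19 that became -0.01 after centring. Its largest member Cpt1a, which admits fatty acids to mitochondria, rose by 2.25 from between 7.72 and 7.96 to between 9.99 and 10.19.

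**Figure D2:**
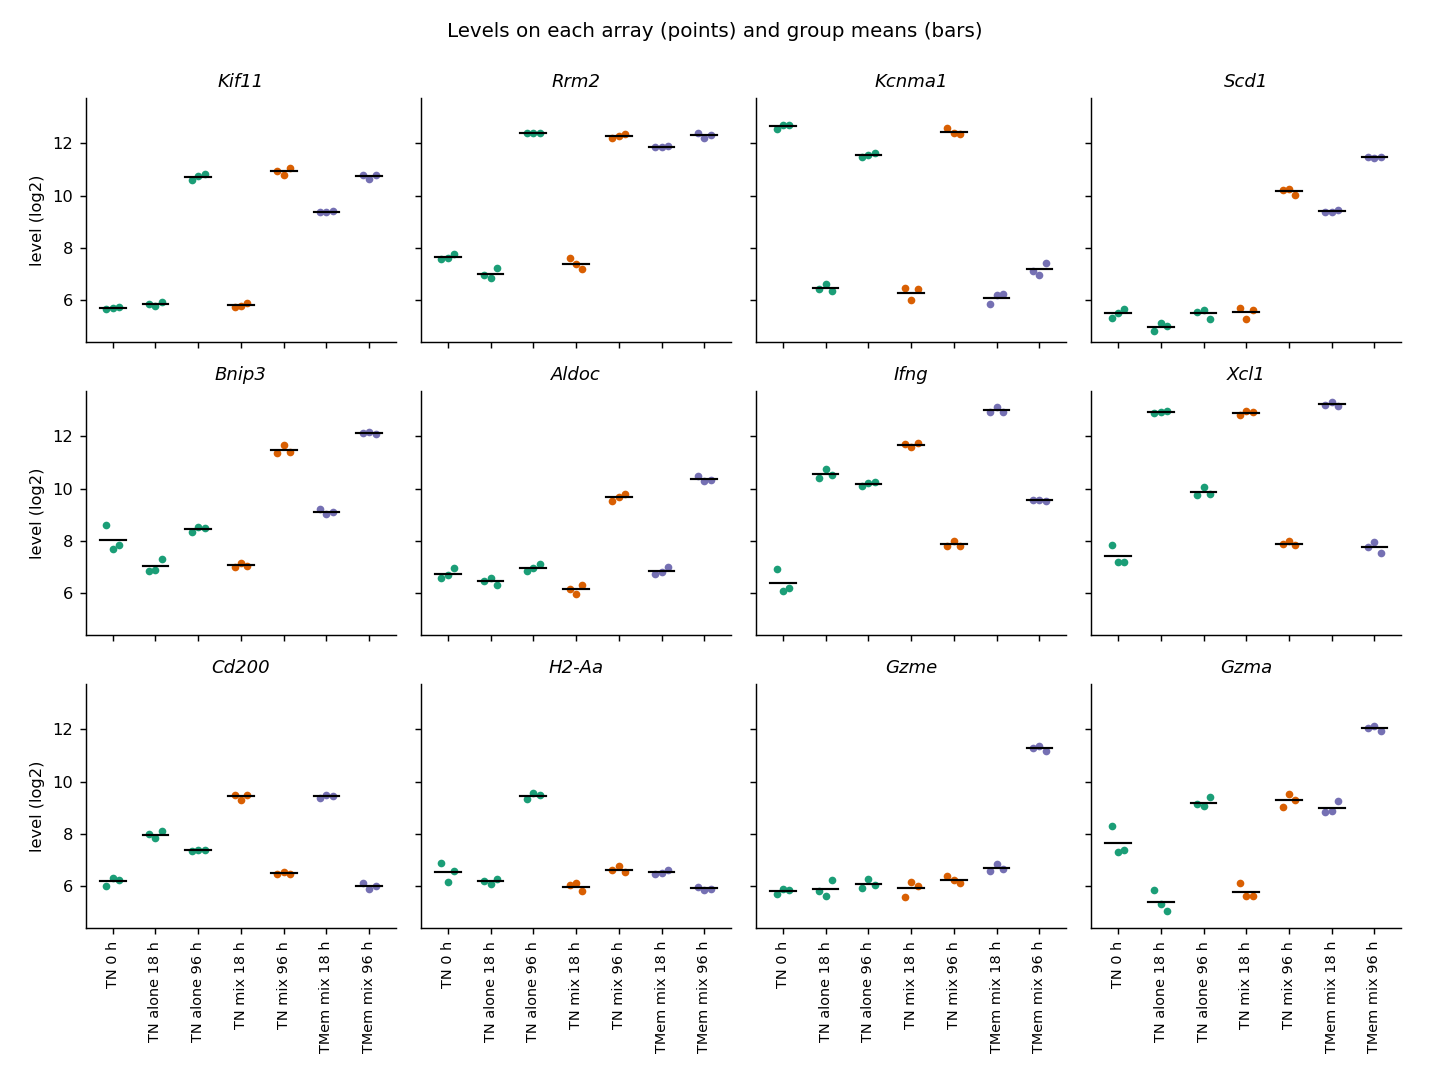
Log2 level on each array of 12 genes in unstimulated TN cells, TN alone, TN mix and TMem mix at the times given on the x axis, 3 arrays per group. In TN mix the cycle genes Kif11 and Rrm2, the metabolic genes Scd1, Bnip3 and Aldoc and the channel gene Kcnma1 are high at 96 h, and Ifng, Xcl1 and Cd200 are high at 18 h, with no overlap of the 3 arrays of either time.

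Amino acid genes under the stress regulator ATF4 rose in 13 of 24 cases and fell in 3 (median 0.32, 9 and 5 after centring). Asns, which makes asparagine, was the largest, at 8.98, 8.75 and 8.83 at 18 h and 11.34, 11.45 and 11.27 at 96 h (2.50, SE 0.29, adjusted p = 6.08e-08). Chac1, which degrades glutathione, rose by 1.24, Sesn2, an inhibitor of mTORC1, by 1.17 and Trib3, a pseudokinase, by 1.13. Metallothioneins, which bind zinc and copper, stood out within a list of 7 zinc genes in which 2 rose and 3 fell. Mt2 went from 8.41, 8.82 and 8.47 to 12.11, 11.82 and 11.91 (3.38, SE 0.27, adjusted p = 4.2e-11), and Mt1 rose by 2.54 (SE 0.22) from between 7.45 and 7.49. The falls were the zinc importers Slc39a14 (-0.51) and Slc39a10 (-0.46) and the metal sensor Mtf1 (-0.32).

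Transcripts of ribosome production genes were mostly lower at 96 h. Of 33 genes of ribosome assembly and RNA polymerase I, 33 were lower at 96 h, with a median of -0.96 (-1.16 after centring), where 16.6% of all genes fell. Noc3l, which is needed for the large subunit, went from 10.69, 10.60 and 10.59 to 8.64, 9.39 and 9.28 (-1.52, SE 0.13, adjusted p = 9.81e-11). Rrp9, a part of the complex that cuts ribosomal RNA, went from 10.73, 10.66 and 10.69 to 9.30, 9.46 and 9.30 (-1.34, SE 0.10). Replicate 1 at 96 h was the lowest array for most of these genes, but all 33 were also lower without it (median -0.87). Genes of the cytosolic ribosomal proteins were lower in 12 of 17 cases (median -0.27), in 7 without that array and in 16 after centring. Quantile normalization gave 9 lower, and a fit of only the 6 TN mix arrays gave 5. The largest was Rps14, at 11.70, 11.49 and 11.53 and then 10.62, 10.87 and 10.97 (-0.76, SE 0.12). Unstimulated TN cells held lower levels than the 18 h arrays for Noc3l (mean 9.01) and Rrp9 (9.26), and a higher one for Rps14 (12.25), differences that were not tested.

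The proteasome list divided by subunit type. Of 33 genes, 22 fell and 3 rose (median -0.46), with 17 and 3 without 96 h replicate 1 and 29 and 3 after centring. Among the falls were Psmc5, an ATPase of the regulatory cap, from 9.57, 9.20 and 9.32 to 7.99, 8.68 and 8.60 (-0.94, SE 0.15), and Psma7 of the outer ring (-0.86). The 3 rises were Psmb8, Psmb9 and Psmb10, the catalytic subunits of the immunoproteasome, which makes peptides for MHC class I. Psmb10 went from 9.73, 9.56 and 9.69 to 10.74, 11.02 and 10.58 (1.12, SE 0.15, adjusted p = 6.27e-07), and Psmb9 rose by 0.76. Psmb8 (0.58) is named after its values were seen.

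Respiration stood near the whole set of genes. Of 44 genes of the respiratory chain and ATP synthase, 2 rose and 8 fell (median -0.08), a share below the 37.5% called over all genes. Without 96 h replicate 1 the counts were 3 and 3 (median 0.03), and after centring 0 and 18 (median -0.29). Ndufa4, a protein of the last complex of the chain, shows that array apart, with 10.20, 10.06 and 9.96 at 18 h and 8.68, 9.50 and 9.38 at 96 h (-0.89, SE 0.21, adjusted p = 0.00135). In the TCA cycle 2 of 14 rose and 1 fell (1 and 8 after centring).

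**Figure D3:**
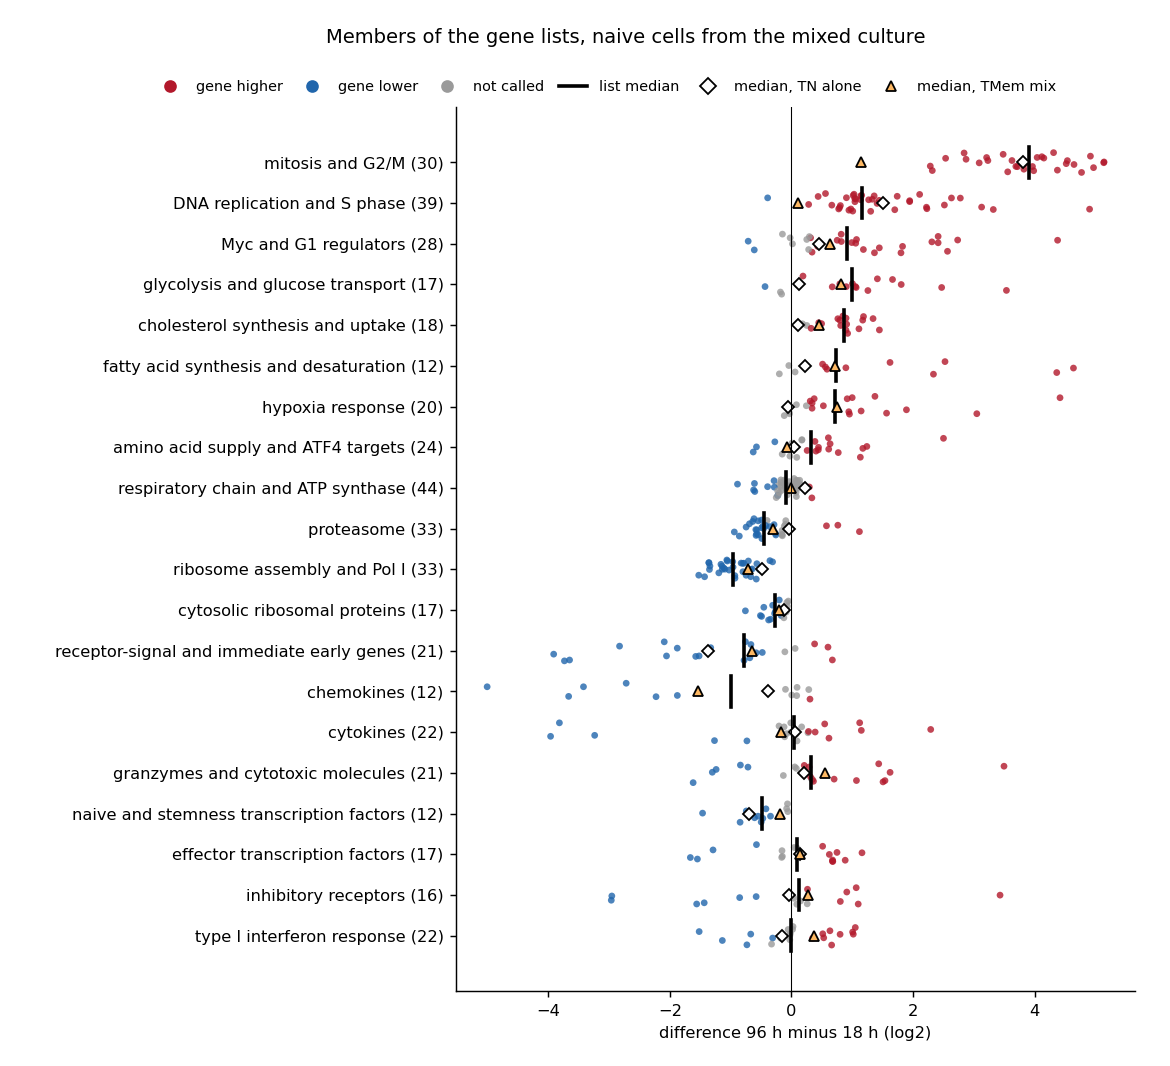
Difference of 96 h minus 18 h (log2, x axis) of every autosomal member of 20 gene lists in TN cells from mixed cultures; dots are genes, red where called higher, blue where called lower and grey otherwise, and the black bar is the list median. White diamonds give the median of the same list in TN alone and orange triangles that in TMem mix; mitosis genes lie between 2.28 and 5.14, and the median of glycolysis is 1.00 in TN mix against 0.13 in TN alone.

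Genes that receptor signals induce within hours were lower at 96 h. Of 21, 16 fell and 3 rose (median -0.78, 17 and 2 after centring). The NR4A receptors, which record recent antigen signals, led with Nr4a1 at 11.55, 11.50 and 11.62 and then 7.57, 7.78 and 7.60 (-3.91, SE 0.14, adjusted p = 4.94e-19), and Nr4a3 at -3.73. Egr2, a zinc finger factor of the same signal, went from 10.90, 11.12 and 10.89 to 7.01, 7.49 and 7.46 (-3.65, SE 0.17), and Egr3 fell by 2.09. Dusp2, a phosphatase that shuts off ERK, fell by 2.05 (SE 0.06). Cd69, which keeps activated cells in lymphoid tissue, fell by 1.33 from between 12.42 and 12.54 to between 11.15 and 11.20, close to its 0 h mean of 11.32. Other surface and signalling genes among the largest falls were Rgs16, which dampens G protein signals of chemokine receptors (-4.11), Crtam, an adhesion receptor of activated CD8+ cells (-3.79), Cd83 (-3.71), Tagap, a GTPase-activating protein of activated T cells (-3.18), and Bcl2a1c of the BCL2 family (-3.26), which has near-identical copies and is uncertain.

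Chemokines fell with them: 6 of 12 fell and 1 rose (median -0.99, 7 and 0 after centring). Xcl1, which attracts cross-presenting dendritic cells, had the largest fall of all genes, from 12.80, 12.96 and 12.92 to 7.86, 7.98 and 7.83 (-5.00, SE 0.26, adjusted p = 3.83e-15). Ccl3, an inflammatory chemokine, went from 13.06, 13.10 and 13.01 to 9.47, 9.39 and 9.32 (-3.66, SE 0.35), and Ccl4 from between 10.76 and 10.83 to between 7.15 and 7.50 (-3.42). Ccl9 fell by 2.72 and Cxcl10, a ligand of CXCR3, by 2.23. The 96 h level of Xcl1 lay near its 0 h mean of 7.40, while Ccl3 was still above its mean of 6.96. Ccl5, a chemokine of effector and memory cells chosen after its values were seen, was not called (0.28, adjusted p = 0.282).

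Cytokine genes split. Of 22, 7 rose and 5 fell, with a median of 0.03 that became -0.17 after centring and -0.05 with quantile normalization. The falls held the signature products of an activated T cell. Ifng stood at 11.71, 11.59 and 11.73 at 18 h and at 7.80, 7.996 and 7.80 at 96 h (-3.81, SE 0.45, adjusted p = 6.43e-08). Il2, the T cell growth factor, went from 8.53, 8.95 and 8.77 to 4.95, 4.58 and 4.83, near background (-3.96, SE 0.17, a minimum size). Il3, a growth factor for blood cells, went from 7.61, 7.91 and 7.83 to 4.60, 4.57 and 4.47, near background (-3.23, SE 0.41, a minimum size). Tnf fell by 1.26 and Lta, chosen after its values were seen, by 0.73. The rises were led by Il10, which restrains inflammation, from 4.94, 4.72 and 4.92, near background, to 7.11, 7.38 and 6.96, a difference of at least 2.29 (SE 0.15, adjusted p = 5.01e-13), and by Il24 (1.12).

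Cytotoxic genes changed in both directions. Of 21 granzymes and cytotoxic molecules, 12 rose and 5 fell (median 0.31, 7 and 5 after centring). Gzmb, the main granzyme of effector cells, was high at both times, at 12.54, 12.52 and 12.52 and then 12.77, 12.93 and 12.91 (0.34, SE 0.08, adjusted p = 0.00115). That call was lost after centring (0.14, adjusted p = 0.225). Gzma, a tryptase of killer cells, rose by at least 3.50 (SE 0.21) from 6.12, 5.63 and 5.60, near background, to 9.04, 9.51 and 9.29. Perforin (Prf1), which opens the target membrane, fell by 1.62 (SE 0.14, adjusted p = 4.71e-10) from 9.60, 9.52 and 9.61 to 8.02, 7.99 and 7.87. Gzmk rose by at least 1.54 and the death ligands Fasl and Tnfsf10 by 1.51 and 1.44. The serpins that guard the killer cell parted, with Serpinb9, the inhibitor of granzyme B, at -1.24 and Serpinb6a at 1.62.

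Transcription factors of naive and stem-like cells fell in 9 of 12 cases with none rising (median -0.48, 11 after centring). Bach2, a repressor of effector genes, went from 10.21, 10.31 and 10.27 to 8.94, 8.71 and 8.76 (-1.46, SE 0.12, adjusted p = 5.6e-11). Klf3 fell by 0.84, Id3 by 0.74, Myb by 0.61 and Klf2, which keeps T cells recirculating, by 0.50. Lef1 (-0.07, adjusted p = 0.595) was not called, but was called lower after centring (-0.27, adjusted p = 0.0386). Effector factors were mixed, with 8 of 17 higher and 4 lower and a median of 0.09 that became -0.11 after centring. T-bet (Tbx21) and Irf4, both induced by receptor signals, fell, Tbx21 from 11.15, 11.20 and 11.24 to 9.61, 9.73 and 9.61 (-1.55, SE 0.14) and Irf4 by 1.66. Both remained above their 0 h means of 6.99 and 6.26. Eomes (0.04, adjusted p = 0.709), at 10.69, 10.56 and 10.76 and then 10.71, 10.76 and 10.68, was not called. Rises were Rora (0.75), Prdm1, the gene of Blimp-1 (0.68), and Stat4 (0.62).

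Inhibitory receptors did not move as a group: 6 of 16 rose and 6 fell, with a median of 0.12 that became -0.08 after centring. PD-1 (Pdcd1) went from 10.29, 10.20 and 10.35 to 7.26, 7.54 and 7.14 (-2.96, SE 0.11, adjusted p = 2.75e-18), against a 0 h mean of 6.93. Cd200, the ligand of an inhibitory receptor, went from 9.50, 9.29 and 9.49 to 6.44, 6.51 and 6.47 (-2.95, SE 0.11). Lag3 fell by 1.56 and Cd160 by 1.43. Against these falls, the ectonucleotidase CD39 (Entpd1), which degrades extracellular ATP, rose by at least 3.43 (SE 0.12) from 5.07, 5.48 and 5.40, near background, to 8.59, 8.89 and 8.76. Costimulatory genes fell in 8 of 12 cases with none rising (median -0.36, 9 after centring), among them the TNF family ligands Tnfsf14 (-1.83) and Tnfsf4 (-1.67, near background at 96 h and so a minimum size) and the receptors 4-1BB (Tnfrsf9, -1.25) and OX40 (Tnfrsf4, -0.82).

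Cytokine receptors and SOCS genes were mixed (8 of 21 higher, 7 lower). Socs2, a brake on cytokine signals, had the largest difference, from 8.27, 8.25 and 8.07 to 11.28, 11.59 and 11.45 (3.25, SE 0.10, adjusted p = 6.25e-20). Ifngr1 rose by 1.58 and Il18rap by 1.66, and Il6ra fell by 1.39, Stat5a by 1.10 and Il7r by 0.91. Of the IL-2 receptor, the beta chain Il2rb rose by 0.79, while the alpha chain Il2ra (-0.05, adjusted p = 0.639) lay between 12.65 and 12.81 on all 6 arrays. After centring Il2ra was called lower (-0.25, adjusted p = 0.0391). Homing genes had 8 of 20 higher and 4 lower, with a median of 0.08 that became -0.13 after centring and -0.01 with quantile normalization. Ccr2, a receptor that leads cells to inflamed tissue, went from 4.95, 5.29 and 5.26, near background, to 9.23, 9.28 and 9.35, a difference of at least 4.12 (SE 0.33, adjusted p = 4.07e-11). Itgb7, an integrin chain used for homing to the gut, rose by 1.61, and Ccr8 fell by 1.46 to near background, a minimum size. Ccr7, which leads cells into lymph nodes, fell by 0.77 from between 12.63 and 12.67 to between 11.73 and 12.02.

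Stress and survival lists had no shared direction. Over all genes 20.8% rose and 16.6% fell. Type I interferon genes had 9 of 22 higher and 5 lower and a median of 0.00 (7 and 8 after centring), with Ifit3 (-1.52) and Ifit1 (-1.14) falling and the viral RNA sensors Oas3 (1.05) and Ddx58 (1.01) rising. The letters GAAANNGAA of the interferon response element occurred on either strand in 8 of 16 promoters of that list against 7.16% of all. Genes of the unfolded protein response had 5 of 20 higher and 4 lower, with the regulator Xbp1 at 0.59 and the chaperone partner Dnajb9 at -0.65. In the BCL2 and death receptor list 4 of 18 rose (22.2%, near the share of all genes) and 8 fell (44.4%, median -0.19). Fas, a death receptor, fell by 1.30 (SE 0.20) and Mcl1, which protects cells, by 0.83, while Bcl2 rose by 0.67 and Bak1, which opens mitochondria, by 1.08. Of 14 genes of T cell identity 3 rose (21.4%, near the share of all genes) and 4 fell (28.6%), the largest being the receptor dampeners Cd5 (-1.37) and Cd6 (-1.13).

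To set these changes against those of TN cells without memory cells, the same interval in TN alone was set beside that in TN mix, and the difference between the time differences was tested. The groups share no array. TN alone held the Y-linked gene Eif2s3y at a mean of 8.14 at 18 h and near background at 96 h. TN mix held it at 8.36 and 7.64. The part of this signal in the differences between the cultures was not tested. In TN alone 11.4% of genes were higher at 96 h and 13.2% lower. Across genes the time differences had a Pearson r of 0.786 and a Spearman coefficient of 0.548, where genes are not independent replicates. Of genes called in TN mix 47.8% were also called in TN alone, and of those called in TN alone 72.6% were called in TN mix, 3235 in the same direction and 185 in the opposite one. The time difference itself differed for 2394 genes (12.5%), of which 1568 (8.21%) were greater in TN mix and 826 (4.32%) smaller, 228 and 102 by at least 1. Here and below, greater and smaller refer to the signed value. A gene that fell by more in TN mix thus has a smaller time difference there. The split depended on scaling, with 65.5% greater here, 38.5% after centring and 52.6% with quantile normalization.

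**Figure D4:**
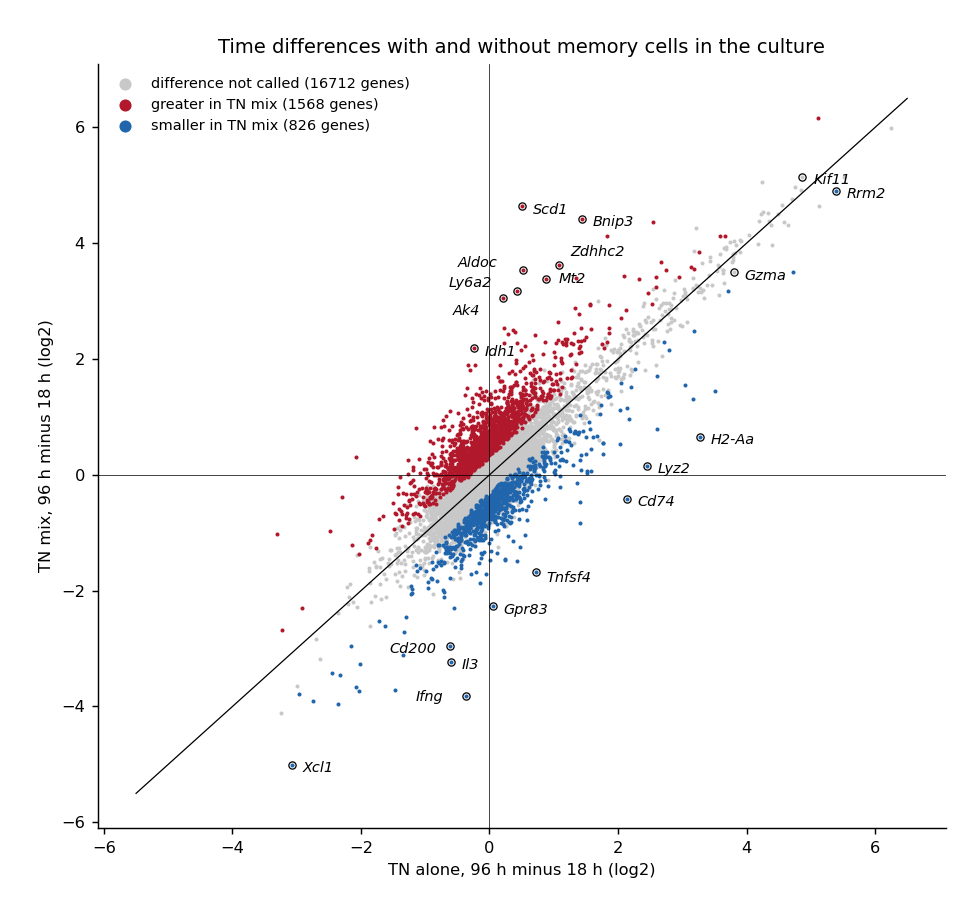
Difference of 96 h minus 18 h (log2) of each autosomal gene in TN alone (x axis) and in TN mix (y axis), with 1568 genes whose difference was greater in TN mix in red, 826 smaller in blue and the others in grey; the line marks equal differences. Kif11 and Gzma lie near the line, Scd1, Bnip3 and Aldoc above it, and Ifng, Cd200, H2-Aa and Lyz2 below it. Smaller is by signed value, so a larger fall in TN mix counts as smaller.

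Cell cycle genes rose in both cultures. All 30 mitosis genes were also higher in TN alone (median 3.80), and the test of the difference called 4 of 30 greater in TN mix (1 greater and 1 smaller after centring, 5 and 2 with array weights). In S phase 38 of 39 rose in TN alone (median 1.51), and 7 had a smaller time difference in TN mix (13 after centring, 21 with array weights, 15 without the 0 h arrays and 2 without 96 h replicate 1), among them Rrm2, whose time difference was 4.90 in TN mix and 5.39 in TN alone (difference -0.49), and Prim1, which makes primers (-1.02). Of the 27 histone genes 1 differed. These tests do not show that the cultures were equal.

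Metabolic genes differed between the cultures. Of 17 glycolysis genes 12 rose by more in TN mix and none by less (9 after centring), and the medians were 1.00 in TN mix and 0.13 in TN alone. Aldoc stood at 6.45, 6.59 and 6.30 at 18 h and 6.86, 6.96 and 7.10 at 96 h in TN alone, so that its time difference was 3.01 greater in TN mix (SE 0.24, adjusted p = 1.56e-09). Slc2a3 was not called there, at 8.66, 8.74 and 8.65 and then 8.34, 8.46 and 8.32, with a difference of 2.12 between cultures. In the hypoxia list 15 of 20 were greater in TN mix (10 after centring), with medians of 0.72 and -0.06. Bnip3 went from 6.85, 6.90 and 7.32 to 8.35, 8.54 and 8.47 in TN alone, 2.98 less than in TN mix (SE 0.31, adjusted p = 1.27e-07). Ak4 differed by 2.83 (SE 0.36). Of 18 cholesterol genes 15 were greater in TN mix (13 after centring), with medians of 0.87 and 0.12. Scd1 stayed at 4.80, 5.12 and 5.02 and then 5.56, 5.63 and 5.27 in TN alone, near background at both times, which gave the largest difference of all, 4.13 (SE 0.49, adjusted p = 1.03e-06). Other genes with greater time differences were Mt2 (2.50), Ly6a2 of the Ly6 family (2.75), Zdhhc2, which attaches palmitate to proteins (2.54), Asns (2.14) and Idh1, which makes NADPH in the cytosol (2.42). Without 18 h replicate 2, the low array, the counts were 9 of 17 for glycolysis, 13 of 20 for hypoxia and 13 of 18 for cholesterol.

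Ribosome assembly genes had a more negative time difference in TN mix in 12 of 33 cases, and proteasome genes in 8 of 33. The median fall of the ribosome assembly genes was larger in TN mix (-0.96 against -0.48 in TN alone). Without 96 h replicate 1 the counts were 9 and 2, after centring 18 and 15, and with array weights 28 and 22. Respiratory chain genes had 9 of 44 smaller in TN mix, with 14 of 44 rising in TN alone (median 0.22). That count was 3 without 96 h replicate 1, 16 with quantile normalization, 21 after centring and 26 with array weights.

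Cytokine and chemokine genes also differed between the cultures. Ifng held at 10.39, 10.74 and 10.51 and then 10.08, 10.23 and 10.23 in TN alone, so that the time difference in TN mix minus that in TN alone was -3.45 (SE 0.63, adjusted p = 3.34e-04). At 18 h its 3 arrays were higher in TN mix than in TN alone, and at 96 h lower. Il3 differed by -2.64 (SE 0.57, adjusted p = 0.00218). Xcl1 fell in both, from 12.88, 12.95 and 12.99 to 9.75, 10.05 and 9.78 in TN alone, with a difference of -1.93 between cultures. Of 12 chemokines 6 had a smaller and 1 a greater time difference in TN mix. Cd200 went from 7.98, 7.83 and 8.10 to 7.32, 7.38 and 7.37 in TN alone. Its fall was larger in TN mix, with -2.34 between cultures (SE 0.16, adjusted p = 8.28e-11). Tnfsf4, the ligand of OX40, rose in TN alone, from 6.34, 6.34 and 6.46 to 6.86, 7.31 and 7.13, and fell in TN mix, with -2.39 (SE 0.18) between cultures. Gpr83, a receptor found on regulatory T cells, was not called in TN alone (0.05) and fell by 2.27 in TN mix, with -2.32 (SE 0.24) between cultures. Of 16 inhibitory receptors 6 were smaller and 2 greater in TN mix.

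Some markers of other cell types had smaller time differences in TN mix than in TN alone: 4 of 6 MHC class II genes, 4 of 8 mast cell genes and 3 of 14 myeloid genes, with none greater. Over all genes 4.32% were smaller and 8.21% greater. H2-Aa, an MHC class II chain of antigen-presenting cells, stood at 6.18, 6.08 and 6.26 at 18 h and 9.35, 9.54 and 9.48 at 96 h in TN alone, and at 6.02, 6.10 and 5.79 and then 6.59, 6.75 and 6.53 in TN mix (difference -2.62, SE 0.23, adjusted p = 7.34e-09). Cd74, its invariant chain, differed by -2.56 and Lyz2, lysozyme of myeloid cells, by -2.29, with Lyz2 near background in TN mix at both times. Over the 6 genes of the MHC class II list the mean level per array lay between 7.13 and 7.36 in TN mix at 18 h and 7.62 and 7.71 at 96 h, against 8.81 to 8.93 in TN alone at 96 h. For 14 myeloid genes it went from between 6.28 and 6.45 to between 6.42 and 6.62, against 6.91 to 6.93 in TN alone, and for 8 mast cell and basophil genes from between 5.71 and 5.79 to between 6.01 and 6.17, against 6.62 to 6.77. Within TN mix itself, 4 of the 6 MHC class II genes rose and 1 fell (2 and 1 after centring). In TN mix 4 of 9 B cell genes rose, 4 of the 9 being near background at both times. So did 3 of 14 myeloid genes (21.4%), 3 of 8 mast cell genes and 1 of 9 NK cell genes, where 20.8% of all genes rose. The myeloid share was thus near that of all genes. After centring 1 B cell gene rose and 1 fell, and 2 myeloid genes rose and 4 fell. Centring also gave 2 mast cell genes higher and 1 lower, and 2 NK cell genes lower. Of 6 CD4 and regulatory T cell genes 1 rose and 3 fell, where 16.6% of all genes fell. All 9 NK cell genes were near background at both times. In bulk RNA, other cells in a sort and transcription by the T cells themselves cannot be told apart, and the part of these cells in the results was not tested.

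TMem cells of the same cultures were measured over the same interval, with 16.3% of genes higher and 11.8% lower at 96 h. Across genes the Pearson r was 0.678 and the Spearman coefficient 0.589, and 55.7% of the calls in TN mix and 74.5% of those in TMem mix were shared. The time differences of 2232 genes (11.7%) differed between the cell types, 1225 (6.41%) greater and 1007 (5.27%) smaller in TN mix, 394 and 130 by at least 1. Here, too, scaling moved the split, with 54.9% greater, 29.4% after centring and 49.6% with quantile normalization.

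The cell cycle separated the cell types. All 30 mitosis genes and 38 of 39 S phase genes had a greater time difference in TN mix, with medians of 3.90 and 1.16 against 1.14 and 0.11 in TMem mix. Rrm2 shows how: in TMem mix it was already at 11.85, 11.88 and 11.91 at 18 h and reached 12.40, 12.20 and 12.32 at 96 h, so that the difference of 4.47 (SE 0.15, adjusted p = 1.89e-18) lay in the low 18 h level of the naive cells. Ccna2 stood between 10.74 and 10.75 and then 11.47 and 11.49 (difference 4.18, SE 0.10). Bub1 (at least 3.92) and H2ac4 (at least 5.20) followed the same order. Kcnma1 was low in TMem mix at both times, at 5.84, 6.19 and 6.24 and then 7.12, 6.97 and 7.42 (difference 5.07, SE 0.19, adjusted p = 3.42e-17), so its high level at 96 h was seen in TN mix and, with a time difference of 5.11, in TN alone.

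Of 21 cytotoxic genes 3 had a greater and 8 a smaller time difference in TN mix than in TMem mix. Gzme stood at 11.30, 11.36 and 11.16 in TMem mix at 96 h and at 6.39, 6.22 and 6.11 in TN mix, where it was not called between the times (difference -4.25, SE 0.20, adjusted p = 3.15e-15). Gzmd differed by -4.11 (SE 0.27), Gzmg by -2.90 and Gzmc by -2.89. These granzymes are near copies of each other on chromosome 14, so their single values are uncertain. Prf1 rose by 0.79 in TMem mix where it fell in TN mix, and Il7r rose by 1.39 there against its fall in TN mix (differences -2.41 and -2.29). Medians of metabolic lists lay closer together: hypoxia genes had medians of 0.72 in TN mix and 0.74 in TMem mix with 2 of 20 greater and 2 smaller, and glycolysis 1.00 and 0.82 with 3 of 17 greater, while 9 of 18 cholesterol genes were greater in TN mix. Il3 showed the reverse order, with a time difference of -7.13 in TMem mix, from 11.67, 11.72 and 11.79 to 4.41, 4.87 and 4.51, near background and so a minimum size.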

How the data were processed

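RNA of sorted cells was measured on Affymetrix arrays, 3 per group. The deposited log2 values are gene-level signals that the authors processed with RMA and Partek, per the submitters' processing notes; no versions or genome build were named. Array medians ran from 6.758 to 6.944 over all rows, so a shift shared by most genes depends on how arrays are scaled to each other. Detection calls and scan dates are not analysed here.

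Of 35556 rows, 21789 had 1 gene symbol, 1621 several and 12146 none, and only the first were used. Of these, 21698 matched the mouse gene table (GRCm38.p6) and 91 did not. For 999 genes with more than 1 row, the row with the highest mean was kept. This gave 19938 genes. Group means of all 30 arrays were fitted with limma 3.58.1 (R 4.3.3, lmFit and eBayes, 20 residual degrees of freedom), and p-values were adjusted by Benjamini-Hochberg over all genes. The fit was checked on simulated data. The unit of replication was the array.

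The comparison, the lists and the genes followed were chosen with earlier results of these data known. Genes named are the 14 largest called rises and falls, the 8 and 5 largest differences in each direction against TN alone and TMem mix, of each list up to 5 called members with the smallest adjusted p and 3 with the largest difference, and 28 genes followed throughout; any other is marked in the text. Of 723 list entries 672 matched a measured gene. Alternatives were centring, quantile normalization, array weights, a filter on low values, trend and robust eBayes, other rows per gene, fewer groups in the fit, a replicate block and leaving out each array.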

Additional observations from a re-analysis of the deposited data

Results flagged for a closer look

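The Y-linked genes carried signal on arrays labelled female. In TN mix the mean of Eif2s3y was 8.36 at 18 h and 7.64 at 96 h, that of Kdm5d 7.49 and 7.29, and that of Uty 6.72 and 6.95, where TN cells at 0 h and TN alone at 96 h held all 3 near background. TN alone at 18 h held them at 8.14, 7.61 and 6.88. These genes lie outside the autosomal comparison, and their source was not tested.

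The time difference in TN mix differed from that in TN alone, by the test of the difference itself, for 1568 genes with a greater and 826 with a smaller signed value. Greater were Scd1 (4.13), Aldoc (3.01), Bnip3 (2.98), Ak4 (2.83), Ly6a2 (2.75), Zdhhc2 (2.54), Mt2 (2.50) and Idh1 (2.42). Smaller were Ifng (-3.45), Il3 (-2.64), H2-Aa (-2.62), Cd74 (-2.56), Tnfsf4 (-2.39), Cd200 (-2.34), Gpr83 (-2.32) and Lyz2 (-2.29). The values of Scd1, Il3, Tnfsf4 and Lyz2 use levels near background, so their sizes are uncertain.

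Against TMem mix the same test gave 1225 genes with a greater and 1007 with a smaller time difference in TN mix. Greater were H2ac4 (at least 5.20), Kcnma1 (5.07), Rrm2 (4.47), Ccna2 (4.18) and Bub1 (at least 3.92). Smaller were Gzme (-4.25), Gzmd (-4.11), Gpr141 (-3.71), Gzmg (-2.90) and Gzmc (-2.89).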

How the results depend on the processing

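Named genes were mostly chosen for called differences in these same data, so the counts that follow do not describe other genes. Of 230 results for named genes 224 were called, and 209 of these kept call and direction under every alternative run for them. The other 15 lost the call under at least 1, and Cd74 did so without TN mix 96 h replicate 1 or 3 or 18 h replicate 1 or 2. Eomes and Il2ra, neither called, changed sign: Eomes to -0.029 with array weights and -0.157 with centring, with -0.008 to 0.088 on leaving out 1 array and the lowest without TN mix 18 h replicate 2, and Il2ra to 0.014 with quantile normalization. Il2ra, Lef1 and Ptprc of the T cell identity list, not called in the main fit, were called lower after centring. Ptprc was also called lower without the 0 h arrays.

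A fit of only the 6 TN mix arrays gave 2929 genes higher and 2476 lower between the times. Centring gave 2162 genes higher and 6035 lower between the times. For the difference from TN alone it gave 859 greater and 1375 smaller, array weights 2710 and 2273, quantile normalization 1262 smaller, and the fit without the 0 h arrays 1414 smaller. For the difference from TMem mix, centring gave 782 greater and 1878 smaller, array weights 1853 and 2427, and the fit without the 0 h arrays 1660 smaller. The cause was not tested. Leaving out 1 array gave 2871 to 4328 genes higher and 2606 to 3099 lower between the times. For the difference from TN alone it gave 1216 to 1625 greater and 536 to 978 smaller, the lowest without TN mix 96 h replicate 1. Against TMem mix it gave 918 to 1304 greater and 714 to 1128 smaller.

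Deviations from group means had r of -0.229, -0.127 and -0.201 between same-numbered TN mix arrays of the 2 times. Between TN mix and TMem mix at 96 h, r was -0.338, 0.344 and -0.009 at equal numbers. Over all pairs of numbers it ran from -0.529 to 0.474. Deviations from a mean of 3 arrays are tied to each other, so these values cannot show whether samples shared a culture or animal. The main fit treated all arrays as independent. With a replicate block the counts were 3939 higher and 3151 lower between the times, 1512 and 772 against TN alone, and 1168 and 957 against TMem mix. With 3 arrays per group the number of arrays limits the precision, and levels near background limit the size of large differences.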

Other observations

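Called genes were spread over all autosomes. The share of genes higher at 96 h ran from 17.6% on chromosome 1 to 25.5% on chromosome 8, and the share lower from 13.6% on chromosome 6 to 20.6% on chromosome 13.

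The letters TCACCCCAC of the sterol regulatory element occurred on either strand in 1 of 14 promoters of the cholesterol list (7.14%) against 0.466% of all 27025 promoters.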
